A study of Synthetic plasmid and Mus musculus with 4 samples.

Results

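The L class comprised 938 of the 3483 target regions of a mouse reporter library, and 13004 of its 45670 constructs. Members were all targets whose identifier starts with the letter L. A construct was used in a tissue where it had at least 10 counts in each of the 3 DNA libraries of that tissue, and a region was tested where at least 5 such constructs remained. This left 10174 L constructs and 626 tested L regions in retina, 10962 constructs and 645 regions in cortex, and 616 regions in both tissues together. The deposited tables give only the letters; from knowledge of the study, L, H, B and R are read as DNase hypersensitive sites of liver, heart, brain and retina. None of these samples is liver, so the letter could not be checked against liver activity.

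A DNase hypersensitive site is a stretch of open chromatin, where a nuclease reaches the DNA because proteins are bound there. Many such sites are promoters or enhancers, and a site is often open only in the tissues whose transcription factors bind it. In a parallel reporter assay, a fragment drives a reporter that carries a short barcode, and the barcode's RNA counts, set against its DNA counts, measure the transcription that the fragment drove. Sites from an unrelated tissue serve as the low end of such an assay in the brain and the eye.

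Fragments were captured from sonicated genomic DNA of the C57BL/6J strain with RNA baits and cloned beside barcodes. The same library was tested in 2 tissues of CD-1 mice. Retinas were electroporated ex vivo at postnatal day 0 and cultured for 8 days, with 5 retinas pooled in each of 3 biological replicates. The library was packaged in an adeno-associated virus (AAV) and injected stereotactically into cerebral cortex at 4 to 6 weeks of age; GFP-positive areas were dissected 4 to 5 weeks later, with 1 animal in each of 3 replicates. Tissue, delivery, age and sequencing lane therefore cannot be told apart.

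Library depth lay between 7025820 and 10411511 RNA counts in retina and between 4000439 and 9674859 in cortex. DNA counts lay between 6501061 and 12147398 in retina and between 3999412 and 10769648 in cortex. L constructs received 116980 to 223721 of the RNA counts in retina and 868144 to 2032455 in cortex. Their activity is given as a share ratio, the class's or region's share of all RNA counts divided by its share of all DNA counts, where 1 is the library average. Shares sum to the whole library, so what one class takes lowers all others. A share ratio is not compared between tissues here, except relative to that of the L class in each tissue.

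Each construct was counted through a barcode, 15 bases long in 98.7% of L constructs and 14 or 16 in the rest. The barcodes below belong to the constructs with most and with fewest RNA counts per DNA count in the top 2 L regions of each tissue, because single constructs carry most of the RNA of many L regions in retina. They are written in the orientation of the deposited table, with G and C in capitals because barcode base composition sets 1 DNA library apart.
L914 most: GtCCttGaGGaGtGt
L914 fewest: CCtCCGCaCtCCCCt
L848 most: CGGtGGCtttGGGGa
L848 fewest: GCCttGGtaCtaCCt
L311 most: aCttCaCCGaaaCCG
L311 fewest: CtGtatttataGaGa
L838 most: GaaCtGtGaCttCtG
L838 fewest: aaCCCtCtaCaCCtC
The L914 construct with most RNA per DNA (454 bases of chromosome 11) gave 1798, 7 and 0 retina RNA counts in replicates 1, 2 and 3, from 111, 41 and 138 DNA counts. Its neighbour with fewest gave no RNA from 477, 189 and 295 DNA counts. Both covered the whole 300-base L914 window. The L848 construct with most RNA per DNA gave 0, 0 and 501 counts from 131, 92 and 196 DNA counts, 38.7% of the RNA of its region. For L311 in cortex the construct with most RNA per DNA gave 243, 25 and 1 counts from 17, 35 and 43 DNA counts, and the L838 one gave 793, 85 and 1865 from 95, 321 and 257. None of these 4 constructs was equally high in all 3 replicates.

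The DNA library of cortex replicate 1 stood apart from the others. Among L constructs used in both tissues, its 15-base barcodes with 11 to 15 G or C bases were represented 3.50 times as strongly, per construct, as those with 0 to 4, against 1.40 to 1.72 times in the other 5 DNA libraries. The same held for H (3.41), B (3.06) and R (3.52) constructs in that library. In cortex replicate 1, L constructs with 0 to 4 G or C bases had a share ratio 1.78 times that of all L constructs, against 1.06 and 1.10 times in replicates 2 and 3. The cortex L share ratio, calls and named regions are therefore also given without replicate 1, and class shares and detection per replicate or as a mean over all 3.

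**Figure D1:**
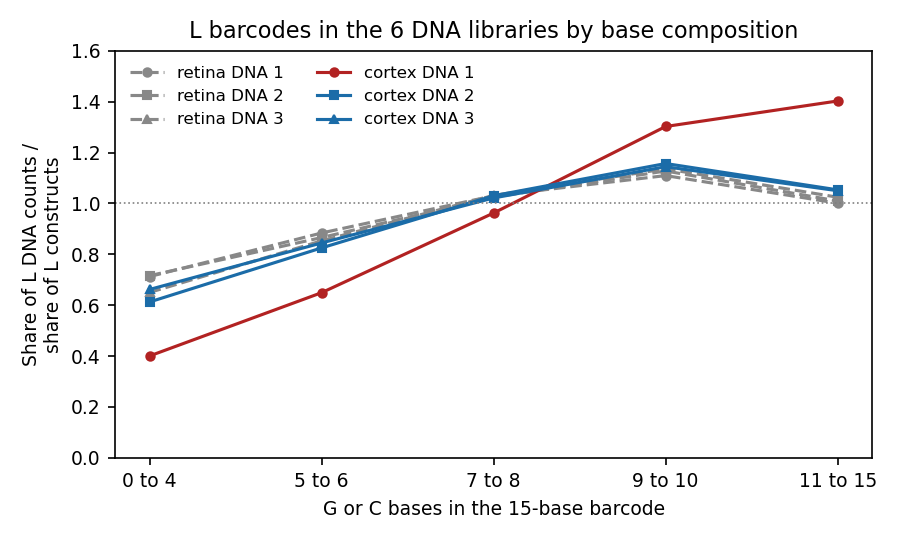
The share of L DNA counts in barcodes of a composition class, divided by the share of L constructs in that class, is plotted against the number of G or C bases for the 6 DNA libraries. Cortex DNA replicate 1 runs from 0.400 to 1.40, while the other 5 libraries start between 0.613 and 0.716 and end between 1.00 and 1.05.

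L constructs were built like those of the other classes. The median L fragment was 464 bases long, against 463 for H, 465 for B and 462 for R, and 41.1% of L fragments covered their whole window, against 41.7% of all fragments. L fragments lay on the plus strand in 49.7% of cases. The median DNA count summed over the 3 libraries was 554 for L constructs and 558 for all in retina, and 392 and 391 in cortex. An L region held more constructs, with a median of 10 (1 to 122), against 7 for H, 6 for B and 7 for R. The regions were spread over 19 chromosomes, from 35 on chromosome 14 to 73 on chromosome 1, and none was on the X chromosome. The window could be placed from the fragments in 842 L regions. Distances to targets of another class were taken over all 938 L regions, between the midpoints of the spans that the fragments covered. None was within 1 kb, 8 were within 5 kb and 35 within 20 kb. The nearest such neighbour was R467, a retina-class target 1693 bases from L579. The fitted retina log2 RNA/DNA was 2.98 for R467 (adjusted p = 0.0882) and -0.33 for L579 (adjusted p = 0.953).

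The L class took the smallest RNA share per DNA share of the 4 classes in every replicate of both tissues. In retina its share ratio was 0.0576, 0.0716 and 0.0765 in replicates 1, 2 and 3 (0.0686 ± 0.0098, SD, n = 3). The H class, read as heart sites, lay just above at 0.0773 ± 0.0041 and the B class, read as brain sites, at 0.0894 ± 0.0055, while R constructs stood at 3.77 ± 0.035. L replicate 3 lay above H replicate 1, so the ranges of these classes overlapped between replicates, although L was lower than H within each. L constructs made up 28.0% ± 0.13 of retina DNA counts and 1.92% ± 0.28 of RNA counts, whereas R constructs held 94.2% ± 0.50 of the RNA.

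In cortex the L share ratio was 0.774, 0.804 and 0.750 (0.776 ± 0.027, SD, n = 3). H stood at 0.818 ± 0.023 and R at 0.818 ± 0.026, and B, the class of the tissue, at 1.66 ± 0.078. Without replicate 1 the L value was 0.777. The L ranges overlapped those of H and R and lay below all B values. L constructs held 21.7% ± 0.80 of the cortex RNA counts.

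The difference from the next class was small. L lay below H by 0.18 ± 0.14 on the log2 scale in retina and by 0.08 ± 0.01 in cortex, below B by 0.39 ± 0.13 and 1.10 ± 0.12, and below R by 5.79 ± 0.22 and 0.08 ± 0.04 (mean ± SD of 3 paired replicates). All 3 replicates gave the same direction in each of these 6 comparisons. An exact two-sided sign-flip permutation test gave p = 0.25 for each, the smallest that 3 pairs allow, and 0.273 after Benjamini-Hochberg adjustment over 12 comparisons. L being lowest thus rests on the direction in 3 of 3 replicates and not on a test.

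**Figure D2:**
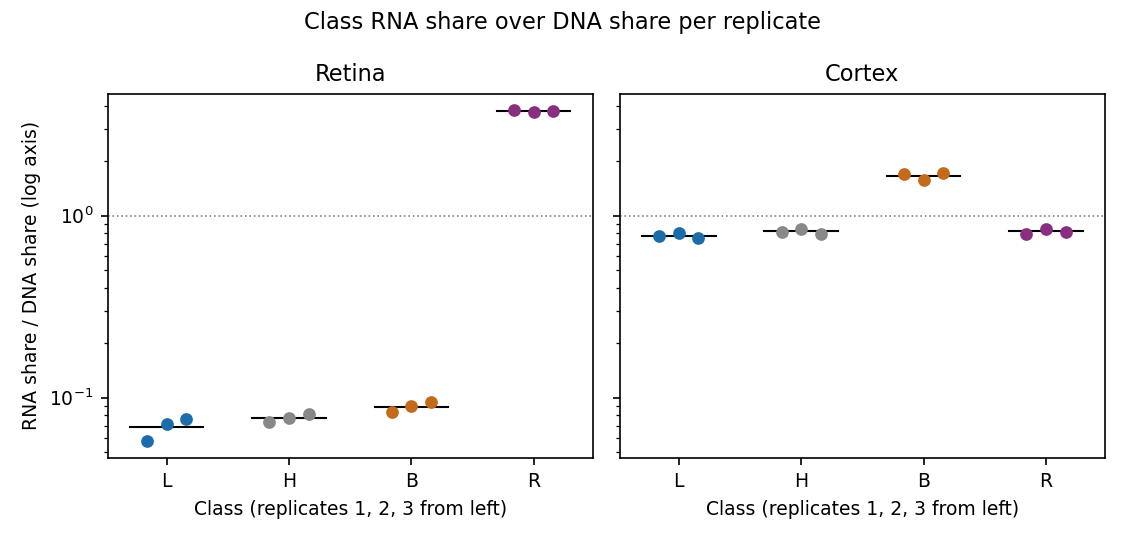
Points are the RNA share over the DNA share of each class in replicates 1, 2 and 3 on a log axis, lines are means, and the dotted line marks 1. L points are the lowest of each replicate, close to H in retina (0.0686 against 0.0773) and to H and R in cortex (0.776 against 0.818).

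Most L constructs gave no RNA count in retina. RNA was counted for 8.15%, 13.5% and 12.0% of them in replicates 1, 2 and 3. Over the 3 replicates, 7308 of the 10174 (71.8%) had none, 2380 had RNA in 1 replicate, 420 in 2 and 66 (0.649%) in all 3. H constructs were alike at 71.2% without RNA and B at 70.3%, against 43.4% of R constructs. The L share with RNA was lower than that of H in 2 of 3 replicates, with a mean difference of -0.22 ± 0.69 percentage points (exact sign-flip permutation p = 0.75).

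Where an L construct was detected in retina, it was often not at the edge of detection. The median count among nonzero values was 33 (quartiles 7 and 130, highest 2969), 8.81% of nonzero values were a single count and 70.6% were 10 or more. A construct with RNA in one replicate had RNA in another more often than the rest did. For example, 22.9% of L constructs with RNA in replicate 1 had RNA in replicate 2, against 12.7% of those without. For R constructs these shares were 76.5% and 22.7%, for H constructs 22.2% and 12.2%, and for B constructs 23.3% and 13.0%. These constructs were not matched for DNA counts. Within the top quartile of DNA counts the L shares lay closer together, at 31.1% and 22.6%.

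In cortex RNA was counted for 55.8%, 56.1% and 66.0% of L constructs, 1464 of 10962 (13.4%) were without RNA throughout, and 3355 (30.6%) had it in all 3 replicates. The median nonzero count was 76. L was below H by 1.22 ± 0.31, below R by 0.70 ± 0.26 and below B by 5.51 ± 0.46 percentage points, in 3 of 3 replicates each (exact sign-flip permutation p = 0.25). RNA and DNA enter these shares through depth, and the libraries of the tissues differ in depth, so the tissues are not compared here.

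Detection followed the amount of DNA. In retina 5.39% ± 1.75 of L constructs in the lowest of 4 equal classes of DNA count had RNA in a replicate, against 19.8% ± 4.94 in the highest (SD, n = 3). In cortex the shares were 32.0% ± 4.74 and 86.6% ± 4.48. H constructs at the same DNA counts gave 5.71% and 19.4% in retina, and 33.6% and 87.1% in cortex. The amount of RNA per DNA did not climb with DNA: relative to all L constructs, the share ratio was 1.31 ± 0.14 in the lowest retina class and 0.97 ± 0.07 in the highest, and 1.10 ± 0.09 and 0.98 ± 0.03 in cortex. A missing RNA count of an L construct is therefore read here as not detected, not as an absence of activity. Why such counts were missing was not tested.

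**Figure D3:**
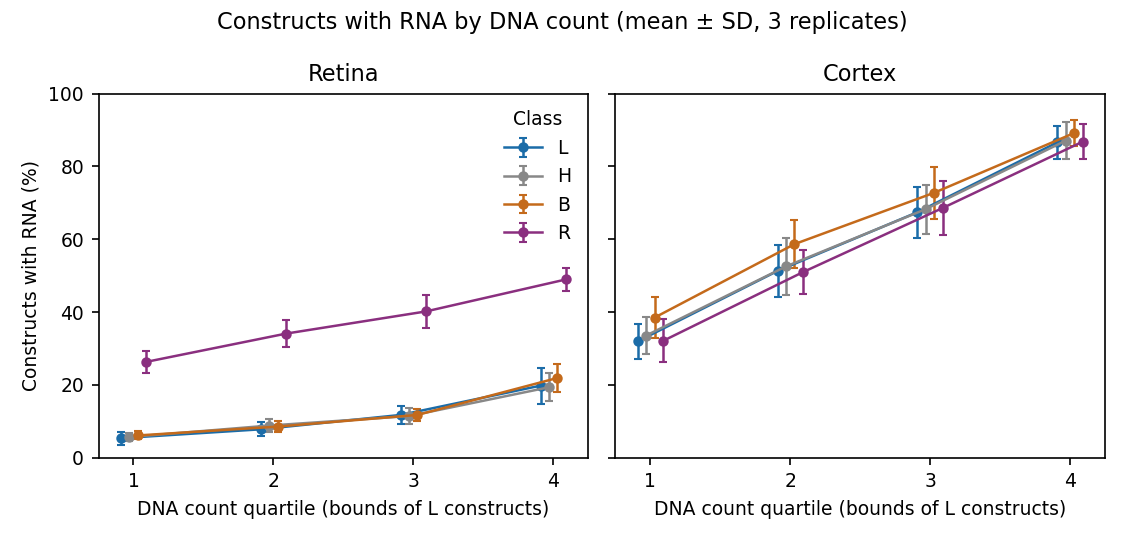
The share of constructs with RNA (mean and SD of 3 replicates) is plotted against 4 classes of DNA count, whose bounds are the quartiles of L constructs. L climbs from 5.39% to 19.8% in retina and from 32.0% to 86.6% in cortex, next to H in both tissues, with R far higher in retina.

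L activity showed little dependence on fragment features. In retina, fragments of 180 to 400 bases had a share ratio of 0.98 ± 0.09 relative to all L constructs and those above 550 bases 0.89 ± 0.08. In cortex the values were 0.99 ± 0.01 and 1.06 ± 0.11. Fragments that held the whole window gave 1.00 ± 0.05 in retina and 0.99 ± 0.02 in cortex, beside 1.07 ± 0.21 and 1.00 ± 0.04 for those holding at most 150 of its bases. The strands differed in retina, where plus-strand fragments gave 1.12, 1.05 and 1.07 in replicates 1, 2 and 3 and minus-strand ones 0.887, 0.950 and 0.937. In cortex the strands gave 0.99 ± 0.02 and 1.01 ± 0.01, and their ranges overlapped.

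The level of a single L construct varied widely between replicates. Over the 10174 retina constructs the Pearson correlation of log2 RNA/DNA between replicates was 0.094 to 0.116, and over the 10962 cortex constructs 0.049 to 0.108. For R constructs in retina it was 0.727 to 0.749. H and B constructs in retina gave 0.104 to 0.142, and H and R constructs in cortex 0.067 to 0.124, near the L values. The Spearman correlations were 0.301 to 0.418 for L in retina (0.083 to 0.153 in the top quartile of DNA counts), 0.063 to 0.103 for L in cortex and 0.619 to 0.658 for R in retina. Points of a pair share the plasmid pool but no library, and depth limits each value. Overlapping fragments of the same L region were no more alike. Among pairs with at least 0.8 reciprocal overlap the correlation was 0.011 in retina (23267 pairs) and 0.0008 in cortex (26958 pairs), whereas it was 0.794 for R pairs in retina and 0.374 for B pairs in cortex. The remaining classes were near L, with 0.037 for H and 0.011 for B in retina and 0.021 for H and 0.017 for R in cortex. Pairs share constructs and regions, so these values are descriptions.

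Levels of L regions, summed over constructs, were also weakly correlated between replicates. Over the 626 retina regions, the Pearson correlation of region log2 RNA/DNA between replicates was 0.011 to 0.105, against 0.730 to 0.748 for R regions. For H and B regions in retina it was 0.034 to 0.161. Over the 645 cortex regions it was 0.067 to 0.198, against 0.504 to 0.603 for B regions and 0.039 to 0.136 for H regions.

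No L region passed the test in either tissue. With edgeR's quasi-likelihood F test on region sums of all 4 classes, 0 of 626 L regions had RNA above DNA in retina and 0 below it at an adjusted p under 0.05. The background was 8.81% of all 2031 regions above and 0.148% below. At an unadjusted p under 0.05, 0 L regions lay above (10.0% of all regions) and 65 below (10.4%, against 7.83% of all). On simulated data the retina fit called few regions with a moderate change, while the cortex fit called most of them. The simulation used a common dispersion for all regions and RNA in proportion to DNA for unchanged ones. Its rates therefore need not hold for these data, and the 0 calls are not read as an absence of moderate activity. DESeq2 called 0 L regions above (10.3% of all regions) and 167 below (26.7%, against 21.6% of all). With limma on construct means, 6 were above (0.958%, against 10.8%) and 12 below (1.92%, against 2.12%). The lower side moved with the processing. Without the replicate block 48 L regions were below (7.67%, against 5.56% of all). Without the top construct of each region 110 were below (17.6%, against 14.5%), and with scaling on total counts 337 (53.8%, against 45.5%).

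In cortex 0 of 645 L regions lay above and 0 below, with a background of 2.99% of all 2108 regions above and 0% below. At an unadjusted p under 0.05 the L counts were 17 above (2.64%, against 7.07% of all) and 26 below (4.03%, against 3.8%). DESeq2 called 2 above (0.310%, against 4.27% of all) and 8 below (1.24%, against 1.23%). With limma 2 were above (0.310%, against 3.08%) and 4 below (0.620%, against 0.332%). Without cortex replicate 1 the edgeR counts were 0 and 0 (2.99% and 0% of all). Without replicate 2 they were 4 and 2 (0.620% and 0.310%, against 3.7% and 0.38%), and without replicate 3 they were 0 and 0 (2.32% and 0% of all). The H class had 1 region called above in cortex and 0 in retina, B 55 and 2, and R 7 and 177.

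In the fit over all replicates, the median level of L regions was the lowest of the 4 classes in both tissues. The median log2 RNA/DNA of L regions was -2.82 in retina, against -2.51 for H, -2.14 for B, 0.93 for R and -1.96 for all regions. In cortex it was -0.16, against -0.07 for H, 0.04 for B, -0.10 for R and -0.09 for all. The scaling between libraries sets the zero of this log2, which is neither the median region nor the point of equal shares. Below the median the order differed, with a lower quartile of -5.91 for L and -6.01 for H in retina, and of -0.47 for L and -0.50 for R in cortex. Medians taken per replicate, which are not on the scale of the fit, were -5.99 ± 0.90 for L and -5.64 ± 0.61 for H in retina (mean ± SD). By these medians L was the lowest class in every retina replicate. In cortex replicate 2 it was not, with -0.414 for L and -0.435 for R. The median pooled share ratio of L regions in retina was 0.0462, against 0.0635 for all regions; the 33 L regions without RNA have limits below this median and cannot move it.

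The upper end of the L class in retina lay below the library average. In retina 0 of 626 L regions had a share ratio above 1 in every replicate, against 6.06% of all regions. The H and B classes also had 0 such regions. The L regions ran from 0 to 0.709, with quartiles of 0.0166 and 0.0960 and a 95th percentile of 0.218. The highest R region stood at 75.4. In cortex 13 of 645 L regions (2.02%, against 6.26% of all) were above 1 in every replicate. This share was 4.33% for H, 4.45% for R and 16.3% for B regions. Cortex L regions ran from 0.0397 to 3.26, with quartiles of 0.622 and 0.900, while the highest B region reached 50.2.

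**Figure D4:**
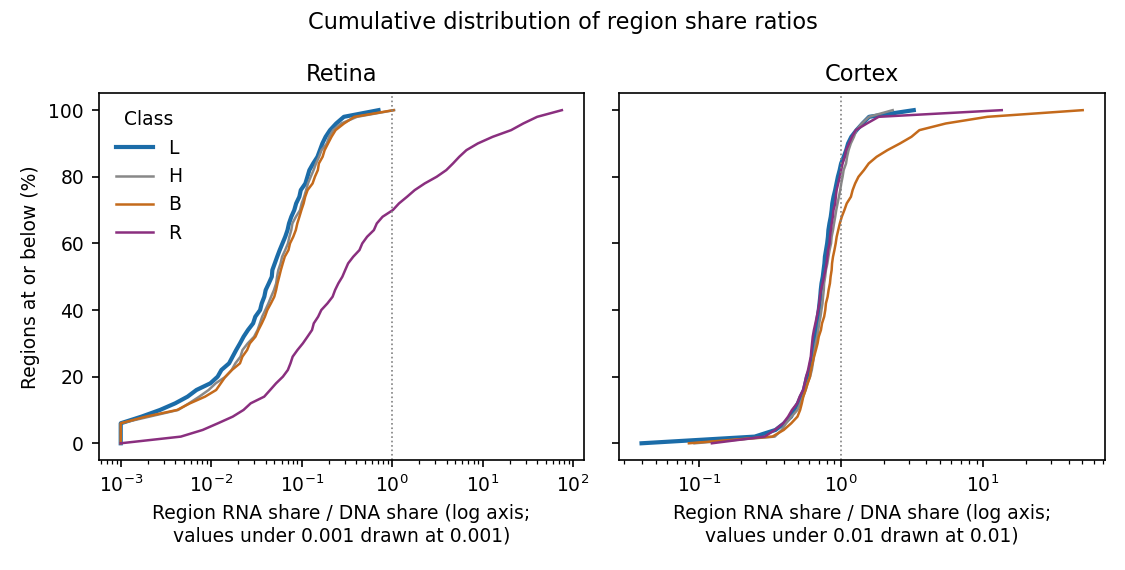
The share of regions at or below a given mean share ratio is plotted per class on a log axis for 626 L regions in retina and 645 in cortex. The L curve lies beside H, with a median of 0.0468 in retina and 0.746 in cortex, and lacks the long upper tail of R in retina and of B in cortex.

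L regions with more constructs lay closer together. In retina the 238 L regions with 5 to 9 constructs had a coefficient of variation of 138% across regions, the 245 with 10 to 19 had 97.5% and the 143 with 20 or more had 67.6%. Of the 33 regions without RNA, 29 had 5 to 9 constructs, 4 had 10 to 19 and 0 had 20 or more. In cortex the coefficients were 46.9%, 34.2% and 32.6%, and the median share ratio was 0.755, 0.727 and 0.751. The quartiles of the 166 cortex L regions with 20 or more constructs were 0.663 and 0.871. In retina the coefficient fell likewise for H regions (178%, 107% and 68.8%) and B regions (164%, 98.2% and 81.1%). For R regions in retina it stayed at 275%, 273% and 241%.

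Within most L regions with retina RNA, 1 construct supplied most of it. Of the 593 L regions with any RNA, 466 (78.6%, against 69.5% of all regions) took over 50% of it from 1 construct, and the top construct supplied a median of 74.3%. This share was 78.9% for H, 71.9% for B and 46.8% for R regions, so L was like H. In cortex 128 of 645 L regions (19.8%, against 18.3%) took over 50% of their RNA from 1 construct, with a median of 32.7%. Over the class the RNA was spread more widely, and the 10 L constructs with most RNA held 5.24% of L RNA in retina and 1.97% in cortex. RNA was present in all replicates in 290 of 626 L regions in retina (46.3%, against 56.4% of all) and in 642 of 645 in cortex (99.5%, against 99.7%). In retina this share was 49.5% for H, 52.6% for B and 80.3% for R regions.

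The highest regions were taken among those with RNA in all 3 replicates. In retina the top one, L914 (chromosome 11, 53512926 to 53513225, mm9), rested on 1 replicate. Its RNA counts were 1817, 186 and 331 in replicates 1, 2 and 3, from 1725, 1234 and 1750 DNA counts, which gave share ratios of 1.79, 0.142 and 0.199. Replicate 1 was high, and 77.3% of the RNA came from the barcode printed first above. The fitted log2 was 1.95 ± 1.5 (SE), with an adjusted p of 0.505 by edgeR's quasi-likelihood test. Under limma on construct means it was 1.11 with an adjusted p of 0.0351.

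L848 (chromosome 10, 116849726 to 116850025) followed with share ratios of 0.478, 0.0653 and 0.598 over 5 constructs, of which 3 had RNA. Replicate 2 was lowest and near the L mean of 0.0686. L204 (chromosome 1, 157642946 to 157643245) gave 0.0922, 0.321 and 0.382 over 13 constructs, and 88.5% of its RNA came from 1 of them. L398 (chromosome 9, 46064786 to 46065085) gave 0.166, 0.202 and 0.325. Its values were close together, yet 82.3% of its RNA came from 1 of 7 constructs.

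L13 (chromosome 1, 58201246 to 58201545) was the best sampled of the 10 highest, with 24 constructs, 9 with RNA, and a top construct of 38.7%. Its RNA counts were 1178, 551 and 1139 from 5989, 3708 and 6262 DNA counts, giving 0.333, 0.140 and 0.191. All 3 values lay above the L mean, and the fitted log2 was 1.23 ± 1.05 (adjusted p = 0.551, edgeR). The other members of the 10 highest, L673, L641, L795, L785 and L998, had mean share ratios of 0.168 to 0.300. L673 ranged most, from 0.0321 in replicate 1 to 0.572 in replicate 2, with 96.9% of its RNA from 1 construct. L841, L983 and L86 had fitted log2 of 0.88 to 1.17, above the last of the 10, but lacked RNA in a replicate. With the top construct of every region left out, the fitted log2 of L848, L204, L398, L673 and L998 was below 0.

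At the other end, 33 of 626 L regions in retina had no RNA count in the constructs used (5.27%, against 3.89% of all regions). This share was 4.91% for H, 4.33% for B and 0.629% for R regions. The one with most DNA was L700 (chromosome 11, 79374106 to 79374405), with 13 constructs and 3621, 1702 and 3565 DNA counts. A limit of 3 counts over the 3 libraries put its share ratio at least 171-fold below that of the L class as a whole. L589 (chromosome 1, 82231246 to 82231545) had 15 constructs and 3351, 1516 and 3853 DNA counts, which put it at least 168-fold lower. These limits hold within the DNA minimum: another L589 construct with 126, 5 and 22 DNA counts gave 0, 8 and 67 RNA counts, and another of L700 gave 1. With no DNA minimum the retina log2 of L589 was -4.86 in place of -13.60. L262, L582 and L68, whose other constructs gave no RNA, had at least 155-fold, 154-fold and 124-fold lower ratios. The 5 had adjusted p = 0.076 each in edgeR's fit. Limits here cover counting error only, and nonzero retina counts of L constructs had a median of 33, above the 3 counts taken. With DESeq2 all 5 passed, at adjusted p of 0.000829 to 0.00562. With limma only L262 passed (adjusted p = 0.0436), and the others had 0.222 to 0.841. In edgeR all 5 also passed with total library size, without the replicate block and with the top construct left out, and none in the other alternatives. The 5 were picked for having no RNA and most DNA, so these tests are no separate support for low activity.

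In cortex the highest L region by fitted log2 was L311 (chromosome 9, 72569146 to 72569445), with 5 constructs. Its RNA counts were 419, 2057 and 1545 from 275, 1016 and 779 DNA counts, giving share ratios of 1.53, 4.14 and 1.66. All 3 were above 1 and replicate 2 was highest. Its log2 was 1.52 ± 0.54 (adjusted p = 0.242, edgeR). With the top construct of every region left out, the log2 was 0.56 (adjusted p = 0.933, edgeR). A single construct supplied 65.0% of the L311 RNA. Its barcode is not printed above, where the L311 construct with most RNA per DNA held 6.69% of the region's RNA.

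L838 (chromosome 11, 4017446 to 4017745) gave 3.19, 0.768 and 2.29, with 63.4% of its RNA from the construct shown above, and replicate 2 lay at the L mean of 0.776. L435 (chromosome 13, 37807266 to 37807565) gave 3.67, 2.06 and 0.695. Both regions thus spanned the library average between replicates, and without replicate 1 their log2 was 0.79 and 0.64, against 1.24 and 1.2 with it. L230 (chromosome 2, 59086946 to 59087245) was more even at 1.28, 1.88 and 1.78.

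L189 (chromosome 8, 85047866 to 85048165) had the lowest adjusted p of the 10 highest. It had 13 constructs, 11 with RNA, and 1460, 3715 and 5203 RNA counts from 1173, 3521 and 2803 DNA counts. The share ratios of 1.25, 2.16 and 1.55 were above 1 in each replicate, and its top construct held a smaller share of the RNA than in the other 9 (25.3% in L842, the next). Its log2 was 1.08 ± 0.30 (adjusted p = 0.083, edgeR). With the top construct of every region left out, which also rescales the libraries, it was 1.34 (adjusted p = 0.0216, edgeR). DESeq2 gave an adjusted p of 0.014. L189 did not pass in the other alternatives, where adjusted p ranged from 0.062 to 0.396 (0.147 with limma, 0.0936, 0.304 and 0.396 without replicate 1, 2 or 3).

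L743 (chromosome 3, 95017546 to 95017845) owed its place to 1 replicate. Its share ratio was 8.18 in replicate 1 and 0.694 and 0.894 in the others, with 70.6% of its RNA from 1 of 26 constructs. Without cortex replicate 1, the library that stands apart, its log2 was 0.041, against 1.06 with it. L631, L871, L708 and L842 had mean share ratios of 1.57 to 1.73, and L842 was at 0.714 in replicate 3. Without replicate 1 the log2 of the other 7 regions was between 0.76 (L708) and 1.78 (L311).

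**Figure D5:**
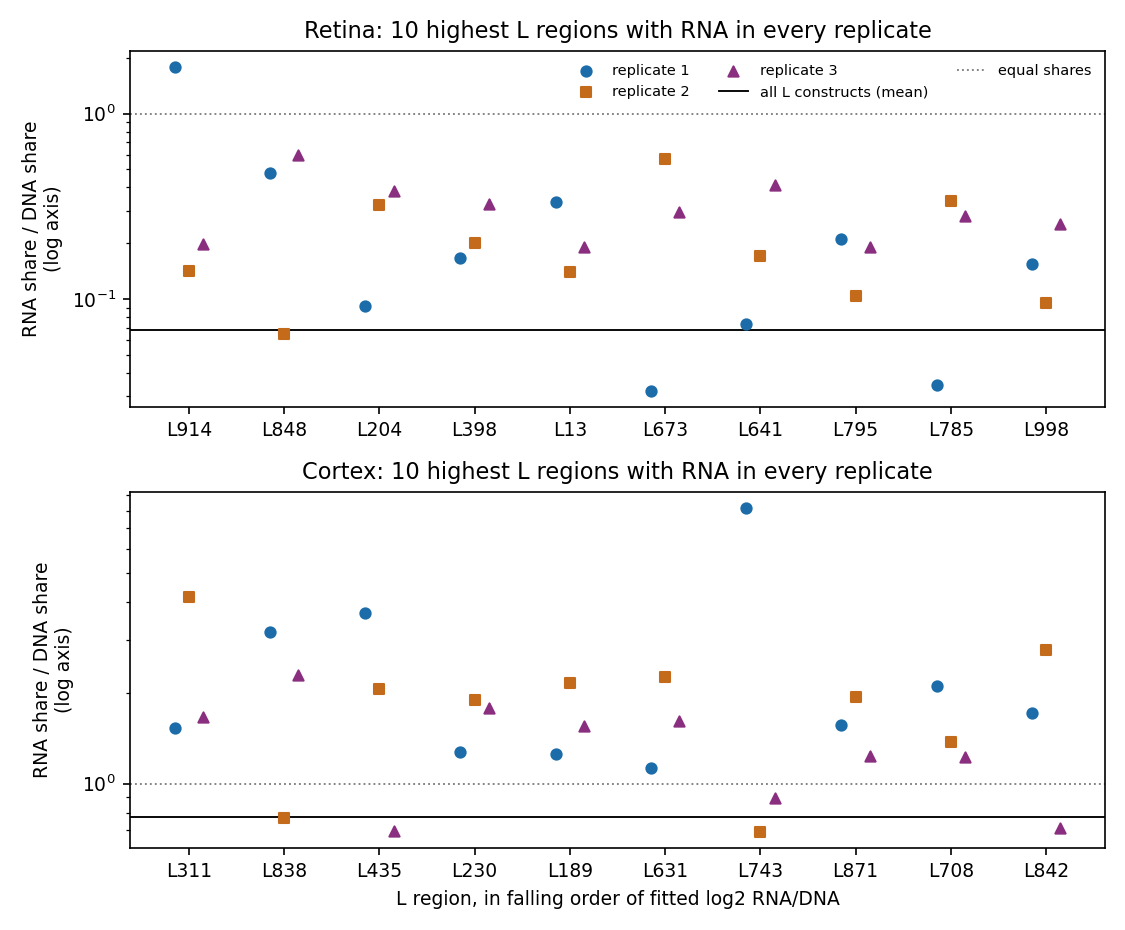
Share ratios of the 10 L regions with the highest fitted log2 RNA/DNA among those with RNA in all 3 replicates, in retina (top) and cortex (bottom) are plotted on log axes, with 1 symbol per replicate, a solid line at the L mean (0.0686 and 0.776) and a dotted line at 1. In retina only L914 in replicate 1 lies above 1; in cortex L743 reaches 8.18 in replicate 1 and lies below 1 in the others.

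Every tested L region had some RNA in cortex, so the lowest were taken by fitted log2. L598 (chromosome 2, 79809786 to 79810085) had 3, 39 and 67 RNA counts from 553, 1371 and 1014 DNA counts over 10 constructs, of which 3 had RNA. Its share ratios were 0.00546, 0.0582 and 0.0553, low in each replicate. The log2 was -4.64 ± 1.22 (adjusted p = 0.056, edgeR), and DESeq2 gave an adjusted p of 1.9e-05. Across the alternatives with edgeR its adjusted p ranged from 0.000232 to 0.325, and without replicate 1 it was 0.19, with a log2 of -3.75.

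L623, L332, L72 and L164 were the other 4 lowest. L332 gave 1.77 in replicate 1 but 0.0163 and 0.0206 in replicates 2 and 3. L72 gave 0.471, 0.0640 and 0.00902, and L623 gave 0.226, 0.00335 and 0.0205. In these 3 regions replicate 1 was the highest. L164 gave 0.0104, 0.155 and 0.163, with replicate 1 lowest. Without replicate 1 the log2 of L623, L332, L72 and L164 was -6.19, -5.36, -4.94 and -2.27, against -4.68, -3.66, -3.52 and -3.29 with it.

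The level of an L region in one tissue showed little relation to its level in the other. Over the 621 L regions tested in each, the Pearson correlation of fitted log2 was 0.033 (Spearman 0.033). The top 10% held 63 regions in each tissue, and 5 were in both. Unrelated rankings would share about 10% of the 63, so the 5 are not read as a set high in both tissues. Of 9817 L constructs used in both tissues, 851 (8.67%) had no RNA in either. RNA was seen in retina for 30.2% of those with cortex RNA and for 15.2% of those without. Points share the plasmid pool, and DNA counts move with detection in both tissues, as shown above.

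The difference between tissues was tested as an interaction over all 12 libraries. By edgeR's quasi-likelihood test 39 of 616 L regions were higher in cortex than in retina (6.33%, against a background of 5% of all 2000 regions), a share near that background. H regions were called in 4.98% and B regions in 7.89% of cases. No L region was higher in retina (0 of 616, 1 at an unadjusted p under 0.05; 2 with DESeq2 and 4 with limma), against 8.35% of all regions, 10.2% with DESeq2 and 8.7% with limma. The median L difference was -2.41, beside -2.44 for H, -2.46 for B, 1.23 for R and -1.80 for all. Changes are thus read against a shifted zero.

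These 39 calls changed with the replicates left out and with the fit. Without cortex replicate 1, 2 or 3 there were 0 L calls, against 0.4%, 0.45% and 0.35% of all regions. Without retina replicate 1, 2 or 3 there were 65, 100 and 80 (10.6%, 16.2% and 13.0%, against 9.4%, 14% and 10.1% of all). DESeq2 called 205 (33.3%, against 28.8% of all), limma 11 (1.79%, against 4.45%; 1 of them among the 39), and scaling on total counts 346 (56.2%, against 48.9%). Of the 39 regions, 28 had no retina RNA in the constructs used, which is 28 of the 35 tested L regions of that kind. The called regions had a median of 5426 retina DNA counts, against 9338 for all L regions tested, and a median cortex share ratio of 0.871 against 0.747. The part of DNA depth in these calls was not tested.

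The 5 largest differences toward cortex had no retina RNA in the constructs used. L589 had 988, 2075 and 3358 cortex RNA counts from 6651 DNA counts, and 0 in retina from 8720. Relative to the L class in each tissue, a limit of 3 counts over the retina libraries put it at least 255-fold lower in retina. Such limits, here and for the next 4 regions, cover counting error only. Nonzero retina counts of L constructs had a median of 33, above the 3 counts taken. This limit leaves out the construct with 75 retina RNA counts named above, which is under the DNA minimum. Its fitted difference of -14.27 (adjusted p = 0.0176, edgeR) depends on how zeros are handled and is no bound. In cortex its level was 1.52 times the L level.

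L518 (chromosome 19, 23560726 to 23561025) had 679, 3074 and 1457 cortex RNA counts and was at least 228-fold lower in retina on the same scale; another of its constructs, used in retina only, gave 24 RNA counts. L508 (chromosome 3, 14687286 to 14687585) had 215, 2616 and 3884 and was at least 282-fold lower. L700 stood at 0.979 of the L level in cortex and was at least 167-fold lower in retina, and L861 (chromosome 6, 27982066 to 27982365) at least 145-fold. Their adjusted p were 0.0208, 0.0309, 0.0215 and 0.0208 (edgeR). For the 5, adjusted p was between 0.0814 and 0.128 when a cortex replicate was left out, and between 0.211 and 0.611 with limma. With no DNA minimum the differences of L589 and L518 were -5.08 and -7.82 (adjusted p = 0.187 and 0.125, edgeR), and the other 3 passed.

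Toward retina, the largest difference was that of L598, the low cortex region above. Its retina share ratios were 0.0548, 0.0823 and 0.434, and 80.1% of the RNA came from 1 construct. The difference was 5.03 ± 2.04 (adjusted p = 0.160, edgeR; 0.00775 with DESeq2 and 0.00131 with limma). L841, L983, L673 and L914 followed with differences of 3.17, 2.95, 2.92 and 2.88 and adjusted p of 0.298 to 0.669.

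The authors' deposited table of mean log2 ratios per construct also places L lowest in cortex. Its median was -4.72 for L constructs, -4.59 for R, -4.46 for H and -3.88 for B. In retina the authors' deposited table places 71.8% of L constructs at its lowest value of -9.97, which is log2 of the pseudocount of 0.001, and the 90th percentile of L constructs at -6.87, against -6.79 for H and 2.81 for R.

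Regions just inside and just outside the minimum of 5 constructs were fitted together with a minimum of 2. In retina 60 L regions with 4 constructs had a median log2 of -7.09 and 55 with 5 had -6.10. In cortex 60 with 4 had -0.52 and 51 with 5 had -0.29.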

How the data were processed

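Barcode counts per construct of 3 RNA and 3 DNA libraries per tissue were deposited by the authors, per the file headers. Where every DNA library of a tissue held at least 10 counts, the authors also deposited the construct's fraction of each library, the ratio of RNA fraction to DNA fraction, and log2 of this ratio after adding 0.001, per the file headers and values. The deposited construct table gives each fragment's position, strand, target and bases of the 300-base target window covered; its 2 copies were identical. The build is mm9 per the submitters' processing notes, which list bedtools 2.22.1, SAMtools 0.1.19, FastQC and Bowtie2 2.1.0 with no roles. Positions count from 1. A genome or annotation of mm9 was not used here, so genes, motifs and fragment sequences are not described. No molecular identifiers were used here, so limits cover counting error only.

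Region sums of all classes were tested as RNA against DNA with edgeR 4.0.16 in R 4.3.3 (robust quasi-likelihood F test, TMM scaling, Benjamini-Hochberg, threshold 0.05). The biological replicate was a block because the labels derive both libraries of a replicate from the same tissue. Over regions, paired RNA and DNA deviations had correlations of -0.044 to 0.018, so these values themselves show no pairing. TMM factors in retina were 0.277 to 0.317 for RNA and 3.41 to 3.43 for DNA. Differences between tissues were an interaction over 12 libraries on constructs used in both. Construct and replicate log2 values used a prior count of 2. For limma, each replicate's median region was set to 0, so its zero differs.

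Alternatives were other scalings, DESeq2 1.42.0, a limma 3.58.1 fit to the mean of construct log2 ratios, a fit without the block, other minimums, the top construct left out, and each replicate left out. The top construct was left out of every region at once and TMM was recomputed, so the zero of that fit can differ. Barcodes of 5 to 10 G or C bases were added after seeing the data. The fits were tested on data simulated with a common dispersion, where the retina and difference fits called few regions with a moderate change. Named regions were, per tissue, the 10 highest log2 with RNA in all replicates and the 5 with most DNA and no RNA (or lowest log2), and the 5 highest and 5 lowest differences. Members, lists and rules were chosen with earlier results of these data known. Python 3.11.15, pandas 2.3.3, numpy 2.4.6, scipy 1.17.1 and matplotlib 3.10.9 were used.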

Additional observations from a re-analysis of the deposited data

Results flagged for a closer look

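The interaction test of retina against cortex passed the adjusted threshold for 9 of the named L regions, all toward cortex. Fitted differences were -14.27 for L589, -14.08 for L518, -13.91 for L508, -13.78 for L700, -13.77 for L861, -13.20 for L871, -13.08 for L262 and -12.45 for L582, each with no retina RNA in the constructs used. The difference was -9.33 for L311, which had 1 RNA count in retina and the highest fitted level in cortex. The fitted sizes of regions with no or 1 retina RNA count depend on how zeros are handled.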

How the results depend on the processing

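The retina L share ratio (0.0646 to 0.0741 without 1 replicate) and the cortex one (0.762 to 0.789) moved by less than their SD under every alternative run. Retina L calls above DNA were 0 in edgeR and DESeq2 fits and 6 of 626 with limma. Of 626 regions, calls below were 337 with total library size, 167 with DESeq2 and 12 with limma. They were 48 without the replicate block and 110 with the top construct left out, and 8 of 503 with a DNA minimum of 50. Of 645 cortex regions, calls above were 2 with DESeq2, 2 with limma and 1 with the top construct left out (0 to 4 without 1 replicate). Cortex calls below were 6 with total library size, 8 with DESeq2 and 4 with limma. They were 1 without the replicate block and 2 with the top construct left out (0 to 2 without 1 replicate). With at least 10 constructs 1 of 411 was below. L regions higher in retina were 2 with DESeq2, 4 with limma and 1 without the replicate block (0 to 1 without 1 replicate). Of 616 regions, those higher in cortex were 346 with total library size, 205 with DESeq2, 11 with limma and 61 without the replicate block, against 39. Without 1 replicate they were 0 to 100. With a DNA minimum of 50 they were 25 of 427, with at least 2 constructs 60 of 822, and with at least 10 constructs 13 of 372. Shares over all regions are given above for some of these settings only. The other counts are not read as results about L. The cause was not tested.

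The share of L constructs with at least 10 RNA counts was 7.91% in retina and 46.9% in cortex; with any RNA in cortex it was 52.2% without a DNA minimum and 72.3% at a minimum of 50. Median L log2 was -6.35 in retina with total library size and -4.35 with the top construct left out; in cortex it was -0.53 with total library size and -0.26 with scaling on H constructs.

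Among named regions, total library size turned the retina log2 negative for L914 (-1.59), L848 (-1.88), L204 (-2.18), L398 (-2.22), L13 (-2.32), L673 (-2.43), L641 (-2.58), L795 (-2.67), L785 (-2.70) and L998 (-2.74), and the difference for L841 (-0.047), L983 (-0.30), L673 (-0.32) and L914 (-0.37). Leaving out the top construct did so in retina for L848 (-3.24), L204 (-0.33), L398 (-6.28), L673 (-6.36) and L998 (-0.031), and for the difference of L841 (-0.93), L983 (-1.33) and L673 (-4.92). Limma reversed L795 in retina (-0.26) and L743 in cortex (-0.21), a DNA minimum of 50 reversed L785 (-8.21), and barcodes of 5 to 10 G or C reversed L743 (-0.13). The difference of L983 ranged from -0.23 to 4.53 without 1 replicate.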
